A study of Homo sapiens with 6 samples.

Results

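The genes described are 33 members of the intrinsic and receptor cell death machinery: the BCL2 family, caspases, the inhibitor of apoptosis (IAP) proteins and the death receptor complex. They were taken as the entries of the count table that carry 1 of 33 fixed symbols, and all 33 were found among 20030 gene names. Of these, 32 passed the filter on low counts and were among the 12508 genes tested, and 1, BIK, did not pass it. RNA was sequenced from KGN, a human granulosa-like tumour line. The 3 control libraries came from KGN cells transfected with a negative control siRNA (genotype given as WT), and the other 3 from KGN cells transfected with siRNA against the long noncoding RNA SNHG5 (genotype given as SNHG5 knockdown). All 6 shared the line, the medium (DMEM/F12 with serum), harvest 48 h after transfection and the SMARTER mRNA-seq kit, used on 1 µg of total RNA. The comparison asked how the transcripts of KGN differed once SNHG5 was targeted. It rests on 1 cell line and on libraries that the labels do not call separate cultures, so the p-values describe the spread among these 6 samples, and that spread may be technical.

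Apoptosis through mitochondria is set by the BCL2 family. Prosurvival members such as BCL2, BCL-XL and MCL1 hold the pore-forming effectors BAX and BAK in check, and BH3-only proteins such as PUMA, NOXA and BIM bind prosurvival members and release that hold. Once the outer mitochondrial membrane opens, cytochrome c joins APAF1 and caspase-9 in the apoptosome, executioner caspases are cleaved, IAP proteins restrain them and SMAC/DIABLO counters the IAPs. Death receptors reach the same executioners through FADD and caspase-8, with CFLAR as the brake, or through TRADD and RIPK1. The IAP proteins BIRC2 and BIRC3 are not steps of that route to death. They belong to TNF receptor complexes and also act in NF-kB signalling. In the ovary, granulosa cells die by apoptosis when follicles undergo atresia.

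Total counts ranged from 18232634 to 22088913 per library. The floor for detection, set at 3 counts, corresponded to 0.136 to 0.165 CPM (counts scaled to each library's total counts, without TMM). The floor covers counting error only, while the intervals of log2 fold changes, taken from edgeR, include the spread among libraries. SNHG5 siRNA replicate 2 stood apart from its group: chi-square divided by its degrees of freedom was 8.62 and 8.82 for its pairs within the group, 1.91 for the other pair and 3.10 to 4.41 for control pairs. The number of passing members is therefore also given without it, and members or lists whose calls change without it are pointed out. SNHG5 was not analysed here, so the labels have no check on the targeted transcript. Of 18 granulosa markers 0 were at 0 in every library. Of the 13 tested, 5 fell, 1 rose and 7 did not pass, where 19.9% of all tested genes passed as lower and 20.3% as higher. Their summed level was 1262 to 1355 CPM with control siRNA and 749.5 to 794.8 CPM with SNHG5 siRNA, and most of that difference was follistatin (FST), at 821.0 and 308.8 CPM. Beside FST, FSHR fell by 1.147, NR5A2 by 0.93, GATA4 by 0.37 and SERPINE2 by 0.17 on the log2 scale, and INHBB rose by 1.10. FOXL2, a transcription factor that marks granulosa cells, averaged 25.3 ± 1.42 and 28.6 ± 4.32 CPM (SD, n = 3) and did not pass the test. AMHR2, INHA, CYP11A1, CYP19A1 and HSD17B1 did not pass the filter on low counts. AMHR2 was under the floor in every library, with 1 count in each control library and 0 with SNHG5 siRNA. CYP11A1 averaged 0.118 and 0.0813 CPM, and the aromatase gene CYP19A1 was near the floor, at 0.235 and 0.359 CPM. All 3 theca markers were at 0, as were CDH5 of 4 endothelial markers and the T cell marker CD3E. The summed endothelial markers, mostly KDR, were 32.03 to 36.04 CPM with control siRNA and 15.4 to 18.4 CPM with SNHG5 siRNA, and the summed immune markers, mostly CD68, 22.2 to 26.3 and 27.4 to 29.2 CPM. The 4 epithelial markers summed to 1.09 to 2.03 CPM over all libraries. The part of these shifts in the results on cell death genes was not tested.

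With SNHG5 siRNA the prosurvival genes BCL2, BCL2L1 and BCL2L2 rose while MCL1 fell. The effectors BAX and BAK1 and the BH3-only genes BBC3, BAD and BMF fell, while the effector BOK and the BH3-only gene PMAIP1 rose. The cytochrome c gene CYCS rose by 1.37-fold, BIRC3 fell by 2.48-fold, and 0 of the 4 initiator caspases passed. In all, 8 of 32 tested members rose, 9 fell and 15 did not pass edgeR's quasi-likelihood test at a Benjamini-Hochberg adjusted p under 0.05. Of all 12508 tested genes, 20.3% passed as higher, 19.9% as lower and 40.2% in either direction, so that shares of 53.1% of members against 40.2% stand side by side. The median log2 fold change of the members was -0.06, beside -0.01 over all tested genes. Changes were mostly small: the median size among passing members was 0.36 on the log2 scale, beside 0.33 among all passing genes, and 2 members, BMF and BIRC3, moved by at least 1. Without SNHG5 siRNA replicate 2, 11 members passed as higher and 10 as lower, while the number over all genes also went up, from 5026 of 12508 to 5608 of 12624 tested. With upper quartile scaling in place of TMM, 39.95% rather than 50.5% of all passing genes were higher, and 6 members rose and 9 fell. CPM did not overlap between the groups for 11 members that were higher and 10 that were lower, where the same was seen for 25.6% and 24.2% of all tested genes, 49.7% in both directions. The smallest p that an exact permutation test of 3 against 3 libraries can give is 0.1. In bulk RNA of this kind, fewer cells with a transcript and less of it per cell cannot be told apart.

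**Figure D1:**
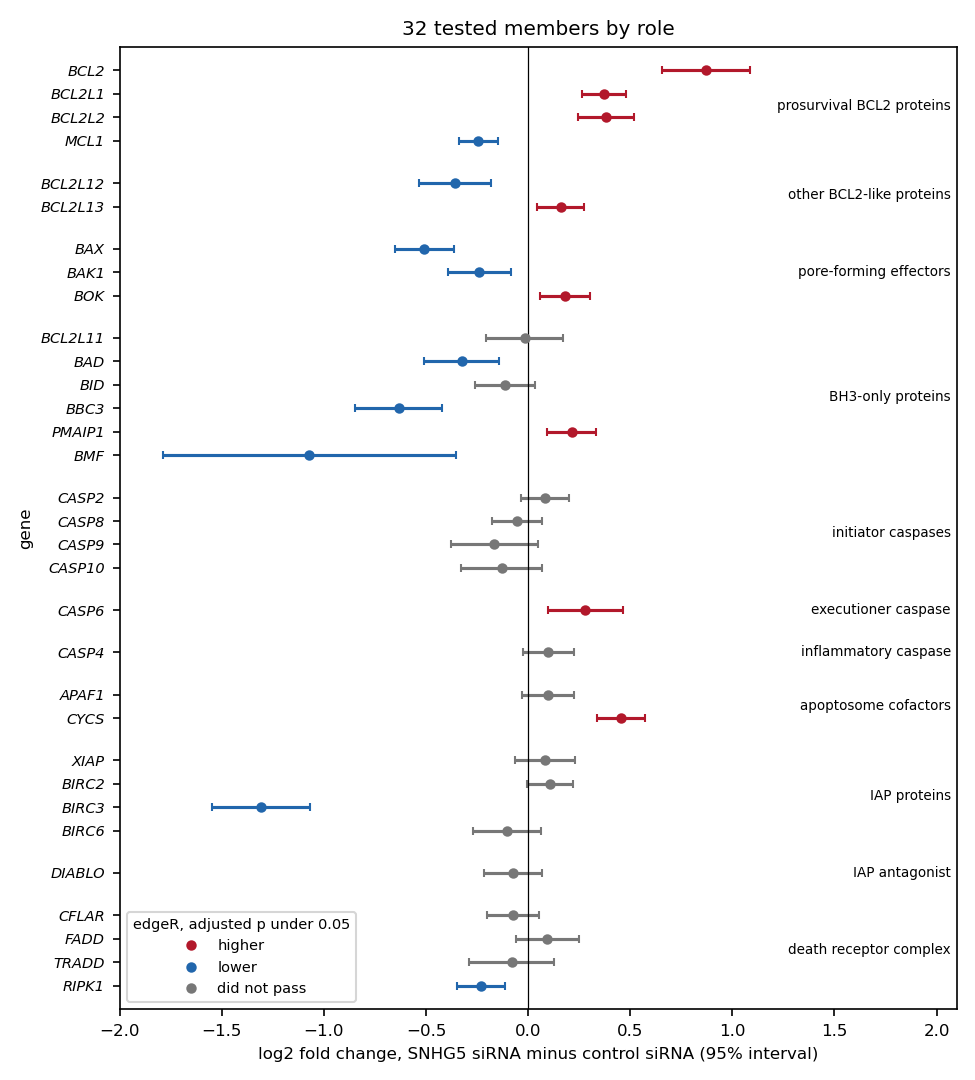
Log2 fold changes (SNHG5 siRNA minus control siRNA, horizontal axis) of the 32 tested members, grouped by role (vertical axis), with 95% intervals from edgeR's quasi-likelihood fit on 3 libraries per group. Red points passed as higher and blue points as lower at an adjusted p under 0.05, grey points did not pass; BIRC3 at -1.31 and BCL2 at 0.87 mark the ends, and the interval of BMF is the widest, from -1.79 to -0.35.

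The series title names miR-92a-3p, a microRNA of the miR-17-92 cluster whose targets are found by pairing of its seed with 3′ UTRs. Its mature sequence and a site of its seed in each of 4 members that changed are shown because they place the word beside the measured changes. In the microRNA the capitals mark the seed (bases 2 to 8, RefSeq); in the sites, read from GENCODE v29 transcripts on GRCh38, they mark GTGCAAT, the word that pairs with that seed.
hsa-miR-92a-3p: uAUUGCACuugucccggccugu
BCL2 3′ UTR (chr18:63124367-63124396, minus strand): gcagctccgtttggcaGTGCAATggtataa
MCL1 3′ UTR (chr1:150577350-150577379, minus strand): gatagccttactgtaaGTGCAATagttgac
BAK1 3′ UTR (chr6:33572552-33572581, minus strand): tgtttggaaataaactGTGCAATcccctca
CYCS 3′ UTR (chr7:25121483-25121512, minus strand): caggctgagtacagtgGTGCAATctcactg

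These 4 genes share the word and differ in direction: BCL2 and CYCS rose, MCL1 and BAK1 fell. In all, 9 of 32 tested members hold GTGCAAT in an annotated 3′ UTR. The other 5 are BCL2L11, CASP9, CASP10, XIAP and CFLAR, and none of these passed. Their log2 fold changes lay between -0.16 for CASP9 and 0.08 for XIAP. Across the 12288 tested genes with an annotated 3′ UTR, 14.0% hold the word; their median log2 fold change was 0.02, and that of the genes without it -0.01. Of genes with the word 18.6% passed as lower, and of genes without it 20.3%. A match is a description of the letters in the transcript, not of binding.

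Of the prosurvival genes, 4 of 4 passed, 3 of them higher. BCL2, the founding member of the family, had 10.6, 9.38 and 9.05 CPM in control siRNA replicates 1, 2 and 3 and 19.1, 15.3 and 19.1 CPM in SNHG5 siRNA replicates 1, 2 and 3. The groups did not overlap, and replicate 2 was the lowest of the SNHG5 siRNA libraries. The mean went from 9.69 ± 0.841 to 17.8 ± 2.20 CPM (SD, n = 3), a log2 fold change of 0.87 ± 0.10 (SE) or 1.83-fold, adjusted p 2.05e-06 in edgeR. On the log2(FPKM + 1) scale, which understates changes of low genes, the difference was 0.42 (limma, adjusted p 0.00232). The gene lies at chr18:63123346-63320128 on the minus strand (GRCh38).

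BCL2L1, which encodes BCL-XL, was the second most abundant prosurvival transcript. It had 150.1, 157 and 144 CPM with control siRNA and 194, 194 and 197 CPM with SNHG5 siRNA. The 3 SNHG5 siRNA libraries had a coefficient of variation of 0.910% and lay above every control library. BCL2L1 rose by 0.37 ± 0.05 on the log2 scale (1.29-fold, adjusted p 1.27e-05). An antisense gene, ABALON, shares 43.0% of its exon bases on the opposite strand, and whether counting used strand is not given in the sources used here. BCL2L2, which encodes BCL-W, had 31.2, 33.9 and 31.8 CPM with control siRNA and 41.7, 41.5 and 43.2 CPM with SNHG5 siRNA, again with no overlap. It rose by 0.38 ± 0.07 (1.30-fold, adjusted p 0.000151). BCL2L2 shares 19.4% of its exon bases with the read-through gene BCL2L2-PABPN1. The deposited count table lists that gene at 0 in all 6 libraries, while its deposited FPKM averaged 37.5 and 46.4, so that the tables assign reads of this locus differently.

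MCL1, a short-lived prosurvival protein, was the most abundant of all members per length and the only prosurvival gene among the 4 that fell. It had 484, 476.5 and 491 CPM with control siRNA and 419, 401 and 411 CPM with SNHG5 siRNA. All SNHG5 siRNA libraries were below all control libraries. The log2 fold change was -0.24 ± 0.05 (1.18-fold lower, adjusted p 0.000361).

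Levels of different genes can be set side by side only per length, and for this the deposited FPKM (fragment counts corrected for gene length and library size) were used. The prosurvival genes together summed to 164.3, 165.6 and 162.1 FPKM with control siRNA and 163.3, 158.6 and 163.6 FPKM with SNHG5 siRNA. These sums overlapped between the groups, while their composition did not. MCL1 made up 70.4% ± 0.999 of the prosurvival sum with control siRNA and 59.1% ± 1.20 with SNHG5 siRNA (SD, n = 3). BCL2L1 made up 24.1% ± 0.880 and 33.3% ± 1.31, BCL2L2 5.03% ± 0.166 and 6.73% ± 0.111, and BCL2 0.492% ± 0.0442 and 0.880% ± 0.117. The sum leaves out the read-through gene BCL2L2-PABPN1, at 37.5 and 46.4 FPKM beside 8.26 and 10.9 for BCL2L2. How reads of that locus were assigned bears on the BCL2L2 share and on the sum. The ratio of BCL2L1 to MCL1 was 0.328, 0.362 and 0.340 in the control libraries and 0.544, 0.604 and 0.546 in the SNHG5 siRNA libraries. These sums and ratios were built from members already called, so they describe the same changes in another form and carry no test.

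**Figure D2:**
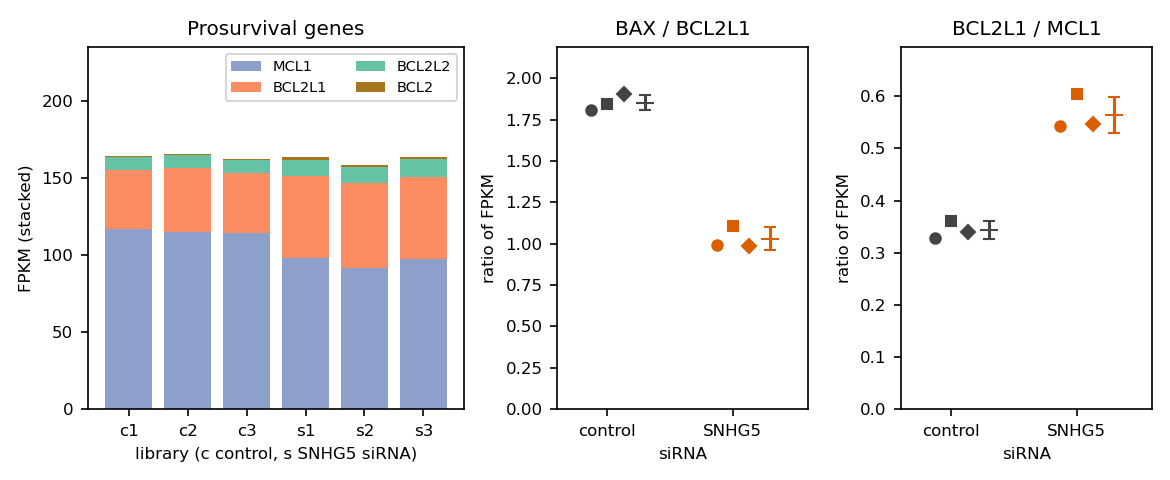
Left, FPKM of the 4 prosurvival genes stacked for each library (c1 to c3 control siRNA, s1 to s3 SNHG5 siRNA): the stacks reach between 158.6 and 165.6 in all libraries while the MCL1 share goes from 70.4% to 59.1%. Middle and right, ratios of FPKM of BAX to BCL2L1 and of BCL2L1 to MCL1 by siRNA (circle, square and diamond are replicates 1, 2 and 3; bars are mean ± SD); in neither panel do the groups overlap.

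Among the more distant BCL2-like genes, BCL2L12 fell and BCL2L13 rose. BCL2L12, a proline-rich relative of the family, had 35.6, 39.8 and 31.8 CPM with control siRNA and 27.7, 30.2 and 26.0 CPM with SNHG5 siRNA (log2 fold change -0.36 ± 0.08, adjusted p 0.00234). It shares 33.1% of its exon bases with IRF3 on the opposite strand, whose own log2 fold change was -0.17 (adjusted p 0.0539). In FPKM the BCL2L12 groups overlapped and the call was lost (-0.26, limma, adjusted p 0.0856). BCL2L13, a mitochondrial outer membrane protein with a part in mitophagy, had 85.3, 88.8 and 92.0 CPM with control siRNA and 99.3, 97.5 and 101.0 CPM with SNHG5 siRNA. Its rise of 0.16 ± 0.05 (adjusted p 0.0251) was lost without control siRNA replicate 1 (adjusted p 0.135) or 2 (0.0708), without SNHG5 siRNA replicate 1 (0.0684) or 3 (0.0882), with upper quartile scaling (0.0870) and in FPKM (0.0641).

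All 3 pore-forming effectors passed, 2 lower and 1 higher. BAX, which opens the outer mitochondrial membrane, was the second most abundant member per length. It had 123, 132 and 117 CPM with control siRNA and 82.3, 98.0 and 81.3 CPM with SNHG5 siRNA. The groups did not overlap, and SNHG5 siRNA replicate 2 lay nearest to the controls. BAX fell by 0.51 ± 0.07 on the log2 scale (1.42-fold lower, adjusted p 1.04e-05), and by 0.60 without that library. The ratio of BAX to BCL2L1 in FPKM was 1.81, 1.85 and 1.90 in the control libraries and 0.993, 1.11 and 0.989 in the SNHG5 siRNA libraries, on average 1.85 ± 0.0469 and 1.03 ± 0.0681 (SD, n = 3). The ratio of BAX to MCL1, both of which fell, overlapped between the groups, at 0.636 ± 0.0385 and 0.583 ± 0.0749.

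The BAX promoter is shown because BAX had the largest change among the effectors and its sequence holds a repeated word. It is the stretch of 250 bases before the RefSeq start (GRCh38.p14, chr19:48954625-48954874, plus strand), with the E-box word CACGTG in capitals.
BAX promoter: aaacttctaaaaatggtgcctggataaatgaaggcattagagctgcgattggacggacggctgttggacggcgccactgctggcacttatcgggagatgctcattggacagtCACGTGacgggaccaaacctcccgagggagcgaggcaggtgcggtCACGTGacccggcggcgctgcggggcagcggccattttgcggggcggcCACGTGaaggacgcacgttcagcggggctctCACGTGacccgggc

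CACGTG reads the same on both strands and stands 138, 93, 45 and 14 bases before the start. Of 35116 RefSeq promoters of this length, 6.34% hold the word at least once and 0.0142% hold it 4 times or more. Other motifs were searched as well, and this word is shown for its matches, so its rarity was not a question set in advance. Besides the NF-kB consensus given below, the p53 half-site matched in 3 member genes, AP-1 in 4, NRF1 in 2 and E2F in 1. Among the 28 members with a RefSeq promoter, BBC3 and BID hold CACGTG too. BAX and BBC3 fell, and BID did not pass.

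BAK1, the partner effector resident on mitochondria, averaged 35.7 ± 2.01 and 30.4 ± 2.05 CPM (log2 fold change -0.24 ± 0.07, adjusted p 0.0157). That call was lost with the GC trend removed (-0.16, adjusted p 0.0643), in FPKM (-0.13, adjusted p 0.202), and without control siRNA replicate 1 (adjusted p 0.0831) or SNHG5 siRNA replicate 1 (0.0899). BOK, an effector known for its regulation by protein turnover and for its expression in reproductive tissue, averaged 56.5 ± 0.141 and 64.2 ± 2.96 CPM (0.18 ± 0.06, adjusted p 0.0191). Its rise was lost with upper quartile scaling (adjusted p 0.0680) and without control siRNA replicate 1 (0.0602) or 2 (0.0600), and was 0.33 with the GC trend removed. Summed over the effectors, the control libraries held 97.4, 104.8 and 104.0 FPKM and the SNHG5 siRNA libraries 83.6, 97.0 and 83.6 FPKM. Divided by the prosurvival sum, they gave 0.622 ± 0.0258 and 0.545 ± 0.0580, which overlapped through SNHG5 siRNA replicate 2 at 0.612.

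Of 6 tested BH3-only genes 3 fell, 1 rose and 2 did not pass. BBC3, which encodes PUMA, a p53 target that binds all prosurvival members, had 13.04, 13.4 and 11.2 CPM with control siRNA and 8.51, 8.002 and 7.88 CPM with SNHG5 siRNA. The groups were well apart, and BBC3 fell by 0.63 ± 0.10 (1.55-fold lower, adjusted p 6.60e-05). The difference was -0.39 on the log2(FPKM + 1) scale (limma, adjusted p 0.00354). BAD, whose product binds BCL-XL and is held inactive by phosphorylation, had 30.4, 28.6 and 24.6 CPM with control siRNA and 23.0, 23.3 and 20.6 CPM with SNHG5 siRNA. It fell by 0.33 ± 0.09 (adjusted p 0.00638), a call lost with the GC trend removed (-0.17, adjusted p 0.0852) and in FPKM (-0.19, adjusted p 0.0876). BAD shares 23.7% of its exon bases with GPR137 on the opposite strand, which fell by 0.24 (adjusted p 0.0305).

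BMF, a sensor tied to the cytoskeleton, was near the floor. Its counts were 31, 24 and 16 in the control libraries and 17, 11 and 7 in the SNHG5 siRNA libraries, or 1.51, 1.18 and 0.878 against 0.770, 0.554 and 0.361 CPM. As counts the groups overlap, and as CPM they do not. The fitted fall was 1.07 ± 0.34 (2.102-fold lower, adjusted p 0.0179). It was lost without control siRNA replicate 1 (-0.86, adjusted p 0.104) or SNHG5 siRNA replicate 3 (-0.85, adjusted p 0.0793) and on the log2(FPKM + 1) scale (-0.12, adjusted p 0.0967).

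PMAIP1, which encodes NOXA, a BH3-only protein that binds MCL1, was the BH3-only gene with the highest FPKM and the one that rose. It had 55.4, 54.9 and 59.4 CPM with control siRNA and 66.2, 66.8 and 64.1 CPM with SNHG5 siRNA (0.21 ± 0.06, adjusted p 0.00685). The call was lost with the GC trend removed (0.13, adjusted p 0.0529) and in FPKM (0.10, adjusted p 0.106). In FPKM, PMAIP1 to BBC3 stood at 6.97 ± 0.634 with control siRNA and 10.5 ± 1.04 with SNHG5 siRNA, without overlap. BCL2L11, which encodes BIM, had a log2 fold change of -0.02 with a 95% interval from -0.21 to 0.17, at 13.5 and 13.4 CPM. BID, which carries the signal of caspase-8 to mitochondria, had -0.11 (-0.26 to 0.04), and passed as lower without SNHG5 siRNA replicate 2 (-0.18, adjusted p 0.0181). BIK had counts of 0, 3 and 2 in the control libraries and 0, 0 and 1 in the SNHG5 siRNA libraries, at or under the floor in every library, and no fold is given. The summed FPKM of the BH3-only genes overlapped, at 72.8 ± 1.01 and 70.3 ± 2.85.

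**Figure D3:**
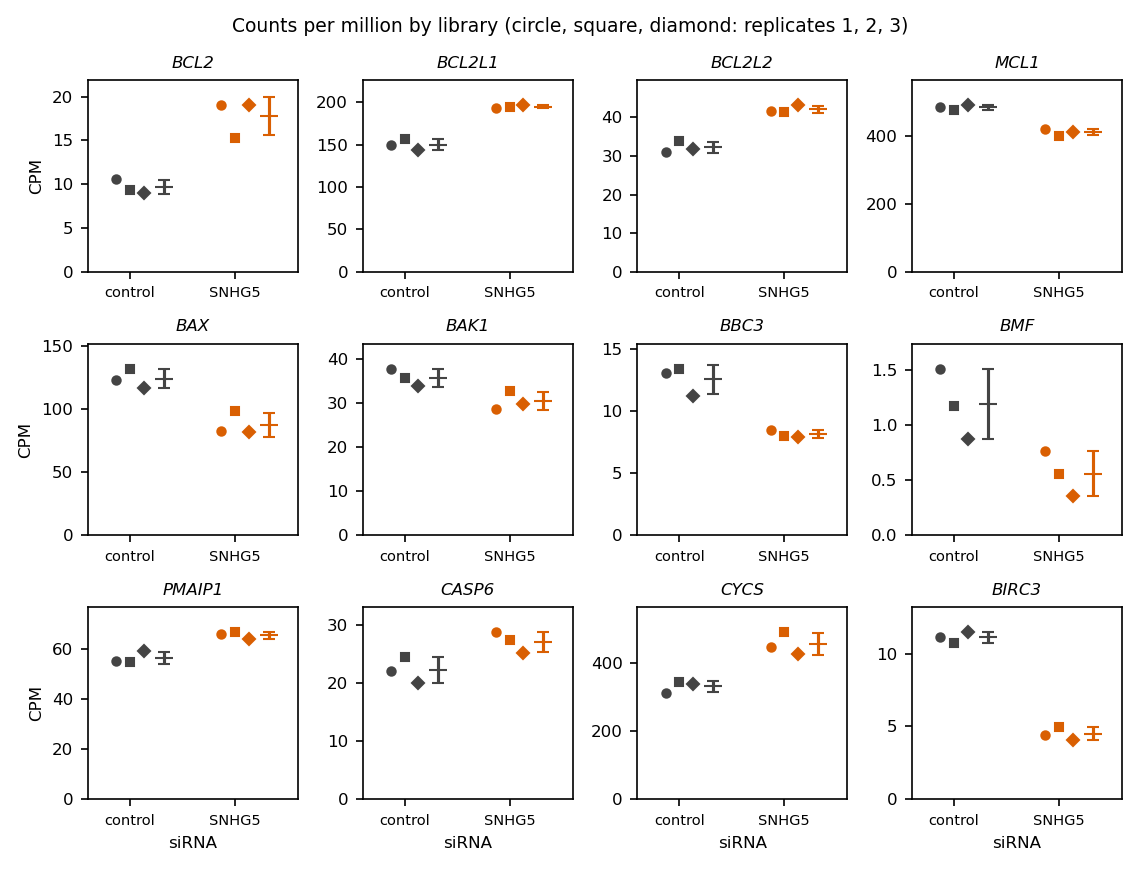
CPM (vertical axes, from 0) of 12 members in the 3 control siRNA and 3 SNHG5 siRNA libraries (circle, square and diamond are replicates 1, 2 and 3; bars are mean ± SD). BCL2, BCL2L1, BCL2L2, PMAIP1, CASP6 and CYCS lie higher with SNHG5 siRNA and MCL1, BAX, BAK1, BBC3, BMF and BIRC3 lower, with no overlap of CPM in any panel; BIRC3 goes from 11.1 to 4.50 CPM.

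The initiator caspases did not pass, 0 of 4. CASP2, an initiator that the PIDDosome activates, had the highest FPKM of these. It had 67.8, 67.0 and 63.7 CPM with control siRNA and 73.0, 68.9 and 69.1 CPM with SNHG5 siRNA. These values do not overlap, but the log2 fold change of 0.08 had a 95% interval from -0.04 to 0.20 (adjusted p 0.257). CASP8, the initiator at death receptors, had -0.05 (-0.18 to 0.07) at 64.0 and 61.8 CPM. CASP9, the initiator in the apoptosome, had -0.16 (-0.38 to 0.05) at 10.1 and 8.98 CPM. CASP10, the close relative of CASP8, had -0.13 (-0.33 to 0.07) at 11.8 and 10.8 CPM. Over these 4 intervals the highest bound was 0.20, that of CASP2, and the lowest -0.38, that of CASP9.

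CASP6, an executioner that cleaves lamins, rose. It had 22.1, 24.5 and 20.0 CPM with control siRNA and 28.7, 27.3 and 25.2 CPM with SNHG5 siRNA (0.28 ± 0.09, 1.21-fold, adjusted p 0.0151). That call was lost without control siRNA replicate 3 (0.21, adjusted p 0.0830) or SNHG5 siRNA replicate 1 (0.24, adjusted p 0.0640). CASP6 shares 5.40% of its exon bases with MCUB on the opposite strand, which rose by 0.24. CASP4, an inflammatory caspase that senses lipopolysaccharide, had 62.9, 65.98 and 65.0 CPM with control siRNA and 66.1, 73.7 and 68.3 CPM with SNHG5 siRNA. The estimate of 0.10 had an interval from -0.03 to 0.22, and CASP4 did not pass (adjusted p 0.201).

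CYCS, which encodes cytochrome c, the electron carrier that starts apoptosome assembly once released, was the third most abundant member per length. It had 312, 343 and 337.5 CPM with control siRNA and 447.5, 489.8 and 428 CPM with SNHG5 siRNA. Every SNHG5 siRNA library was above every control library, and CYCS rose by 0.46 ± 0.06 (1.37-fold, adjusted p 3.55e-06). GENCODE v29 lists 40 pseudogenes named after CYCS, and 0 of them have an entry in the count table. How the authors treated reads that fit more than 1 copy bears on the CYCS value and is not given in the sources used here. APAF1, the scaffold of the apoptosome, averaged 54.3 ± 0.373 and 58.3 ± 3.36 CPM (0.10, interval -0.03 to 0.22, adjusted p 0.211). Without SNHG5 siRNA replicate 2, APAF1 passed as higher (0.15, adjusted p 0.0406).

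Of 4 IAP genes, BIRC3 fell and the other 3 did not pass. BIRC3, which encodes cIAP2, a ubiquitin ligase of TNF receptor complexes and a known NF-kB target gene, had 11.2, 10.7 and 11.5 CPM with control siRNA and 4.44, 4.98 and 4.07 CPM with SNHG5 siRNA. The highest SNHG5 siRNA library was below 5 CPM and the lowest control library above 10 CPM. BIRC3 fell by 1.31 ± 0.11 (2.48-fold lower, adjusted p 4.83e-08), from 11.1 ± 0.380 to 4.50 ± 0.460 CPM (SD, n = 3). On the log2(FPKM + 1) scale the difference was -0.62 (limma, adjusted p 3.54e-05).

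The BIRC3 promoter is shown because BIRC3 had the largest change of all members. It covers 250 bases before the RefSeq start (GRCh38.p14, chr11:102317234-102317483, plus strand), and the capitals mark matches to the NF-kB consensus, searched by that name on both strands.
BIRC3 promoter: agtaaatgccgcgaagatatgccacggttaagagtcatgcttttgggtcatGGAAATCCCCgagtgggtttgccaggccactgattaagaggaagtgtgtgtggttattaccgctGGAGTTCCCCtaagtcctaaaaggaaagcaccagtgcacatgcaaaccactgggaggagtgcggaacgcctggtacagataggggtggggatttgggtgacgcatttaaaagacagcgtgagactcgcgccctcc

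The matches stand 199 and 135 bases before the start, both on the strand opposite to the gene. Of 35116 RefSeq promoters of this length 5.21% hold at least 1 match and 0.635% at least 2. The consensus comes from the same search of several motifs as the E-box word. BIRC6, BMF and CFLAR hold a match as well: BMF fell, and BIRC6 and CFLAR did not pass. BIRC2 lies 7807 bases from BIRC3 on the same strand of chromosome 11 and holds no match in its window. BIRC2, which encodes the closely related cIAP1, had 86.1, 89.3 and 91.3 CPM with control siRNA and 98.2, 92.6 and 97.0 CPM with SNHG5 siRNA. Its log2 fold change of 0.11 (interval -0.01 to 0.22, adjusted p 0.126) did not pass with all libraries and passed without SNHG5 siRNA replicate 2 (0.13, adjusted p 0.0378). In FPKM, BIRC2 to BIRC3 stood at 13.3 ± 0.478 with control siRNA and 36.1 ± 4.18 with SNHG5 siRNA.

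XIAP, the IAP that inhibits caspases directly, had 0.08 (-0.06 to 0.23, adjusted p 0.357), with SNHG5 siRNA replicate 2 at 74.2 CPM and the other libraries of that group at 93.5 and 87.2 CPM. Without that library XIAP passed as higher (0.18, adjusted p 0.00729). BIRC6, a giant ubiquitin-conjugating IAP, had -0.10 (-0.27 to 0.07), and 0.01 without the same library. DIABLO, the IAP antagonist released from mitochondria, had 46.8, 46.8 and 45.3 CPM with control siRNA and 45.8, 47.0 and 39.5 CPM with SNHG5 siRNA. The groups overlapped, and the log2 fold change was -0.07 (-0.22 to 0.07, adjusted p 0.411). DIABLO shares 29.6% of its exon bases with another GENCODE gene of the same name and 16.8% with AC048338.1, both on its own strand. How reads of that locus were assigned is not given in the sources used here.

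In the death receptor complex RIPK1 fell and CFLAR, FADD and TRADD did not pass. RIPK1, the kinase shared by survival and death complexes of TNF receptors, averaged 59.3 ± 1.39 and 50.7 ± 0.404 CPM in the control and SNHG5 siRNA libraries, with no overlap (-0.23 ± 0.06, adjusted p 0.00313). FADD, the adaptor for caspase-8, had 46.1, 47.3 and 45.4 CPM with control siRNA and 47.1, 56.5 and 45.0 CPM with SNHG5 siRNA. SNHG5 siRNA replicate 2 alone was high, and the log2 fold change was 0.09 (-0.06 to 0.25) with it and -0.01 without it. AP000879.1, an antisense gene, shares 54.9% of the exon bases of FADD. CFLAR, which encodes the caspase-8 brake FLIP, had -0.07 (-0.20 to 0.05), and TRADD, the TNF receptor adaptor, -0.08 (-0.29 to 0.13). CFLAR, CASP10 and CASP8 lie in a row on chromosome 2, with gaps of 6193 and 4036 bases, and 0 of the 3 passed.

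Per length, the members ranged from 0.135 to 105.5 mean FPKM among those tested, with a median of 10.3 beside 5.85 over all tested genes. MCL1 stood first, at 115.4 ± 1.49 and 95.6 ± 3.59 FPKM with control and SNHG5 siRNA, followed by BAX at 73.3 ± 3.64 and 55.6 ± 4.91, CYCS at 52.5 ± 2.22 and 69.3 ± 2.56, and BCL2L1 at 39.6 ± 1.72 and 53.9 ± 1.16 (SD, n = 3). With control siRNA BAX was above CYCS in every library, and with SNHG5 siRNA CYCS was above BAX. At the low end were BCL2 (0.808 and 1.43 FPKM), BIRC3 (1.27 and 0.480 FPKM) and BMF (0.182 and 0.0891 FPKM). The genes that changed most on the log2 scale were among the least abundant members. Members that fell had a higher GC content (median 58.8%) than those that rose (46.7%). Spearman's correlation of GC content with the log2 fold change was -0.343 over the 32 tested members and -0.221 over tested genes, a description only, since genes do not replicate each other. With that trend removed, 7 members rose and 7 fell.

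Other genes of the same processes were read from 7 lists. Over these, 98 genes were tested, 18 rose, 29 fell and 51 did not pass, or 47.96% passing, with a median log2 fold change of -0.03. Of all 12508 tested genes 40.2% passed, 20.3% as higher and 19.9% as lower. The counts of each list below stand beside these same shares. Without SNHG5 siRNA replicate 2, 19 rose and 29 fell, while 5608 of all 12624 genes then tested passed. Of 6 tested genes in the rest of the families, 2 rose and 2 fell. BIRC5, the mitotic IAP survivin, rose by 0.87, and the inflammatory caspase gene CASP1 fell by 0.32.

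Of 10 tested death receptor and ligand genes 4 fell, 1 rose and 5 did not pass, with a median of -0.17. TNFRSF10B, a receptor of TRAIL, went from 252.0 ± 2.19 to 164.9 ± 8.54 CPM (SD, n = 3; -0.62, adjusted p 2.50e-08). TNFRSF10A, the other TRAIL receptor that signals death, fell by 0.41, FAS by 0.29 and TNFRSF25, which was under 1 CPM on average, by 1.32. Of 21 genes of receptor complex partners and regulators 7 fell, 3 rose and 11 did not pass. TRAF1, which binds BIRC3 in TNF receptor complexes, fell by 0.80, the A20-binding protein gene TNIP1 by 0.69, TAB2 by 0.59 and TNFAIP3, which encodes A20, by 0.57.

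Of 26 genes of mitochondrial release and membrane partners, 6 rose and 8 fell, and 5 rose and 9 fell without SNHG5 siRNA replicate 2. BECN1, which BCL2 binds in autophagy control, rose by 0.43 and TMBIM4 by 0.42, while BNIP3, a mitophagy receptor, fell by 0.36 and AIFM2 by 0.30. Of 15 caspase-activated nucleases, kinases and gasdermins, 4 rose and 3 fell. DFFB, the nuclease that cuts DNA in apoptosis, fell by 0.36, ACIN1 by 0.27 and STK4 by 0.26, and STK24 rose by 0.23. Of 9 genes of the PIDDosome, the inflammasome and necroptosis, PYCARD fell by 0.78 and NLRP1 by 0.64, and 7 did not pass. Of 13 IAP and caspase interactors 3 rose and 4 fell, and 5 rose and 3 fell without SNHG5 siRNA replicate 2. Beside BIRC5, which this list also holds, XAF1, an antagonist of XIAP, fell by 0.48, FAIM rose by 0.27 and FBXW7 fell by 0.21, the last with an adjusted p of 0.067 without that library.

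**Figure D4:**
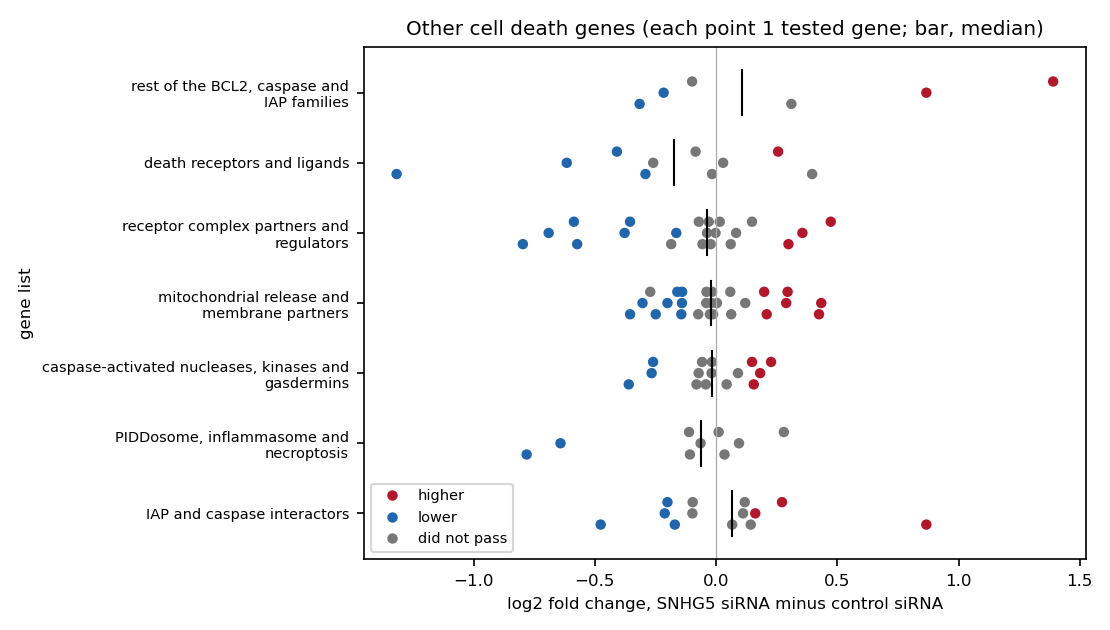
Log2 fold changes (SNHG5 siRNA minus control siRNA, horizontal axis) of the tested genes of 7 other cell death lists (vertical axis), 1 point per gene, with the list's median as a bar. Red passed as higher, blue as lower and grey did not pass edgeR's quasi-likelihood test; medians lie between -0.17 and 0.11, and TNFRSF25 at -1.32 is the lowest point.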

How the data were processed

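The authors deposited counts (whole numbers per gene, not normalised) and FPKM for the 6 libraries. Reads were trimmed with Trimmomatic and GRCh38 was the build, per the submitters' processing notes; not given in the sources used here were aligner, counter, annotation and use of strand. The members and all lists were chosen with earlier results of these data known. Counts were scaled by TMM, filtered with filterByExpr and tested 2-sided with edgeR 4.0.16 (R 4.3.3, quasi-likelihood, all 12508 tested genes, Benjamini-Hochberg adjusted p under 0.05). A further 7522 names were not tested. Alternatives were DESeq2 1.42.0, other scalings and filters, limma 3.58.1 on log2(FPKM + 1) and log2(FPKM + 0.1), a loess trend (span 0.3) on GC content or gene length removed, a replicate block, and each library left out. CPM were taken over each library's total counts, without TMM, and are mean ± SD. Log2 fold changes come from the fit, which used TMM. GENCODE v29 (19266 of 20028 names matched) gave positions, overlaps, GC content and 3′ UTRs; RefSeq gave promoters (28 of 33 members) and the microRNA. Values in every library are given for passing members with a log2 fold change of at least 0.25 in size, the highest FPKM in each role, and members under the filter. Of other lists up to 4 passing genes are named. Marker, overlapping and other genes outside that rule were named after their values were seen. Python 3.11.15 and matplotlib 3.10.9 were used for sequences and plots. Some values are not reported here.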

Additional observations from a re-analysis of the deposited data

How the results depend on the processing

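Of the 17 passing members, BCL2, BCL2L1, BCL2L2, MCL1, BAX, BBC3, CYCS, BIRC3 and RIPK1 kept direction and call in all 16 alternatives, and 12 of 17 kept their call with each library left out. In limma on FPKM, 11 members passed with either pseudocount, 5 of them lower, beside 17 and 9 in counts; over all genes the number also went down, from 5026 to 3993 (+ 1) and 3999 (+ 0.1), with 56.9% rather than 50.5% of these higher, and the cause was not tested. With 1 library left out, 13 to 21 members passed, 6 to 11 higher and 7 to 10 lower, and 3991 to 5608 of all genes, 51.1% to 51.9% of these higher. Signs of members that did not pass turned for BCL2L11 (-0.0908 to 0.0293 with 1 library left out), BIRC6 (-0.1674 to 0.0075) and FADD (-0.007 to 0.1574), the last pair without SNHG5 siRNA replicate 2, and for TRADD (0.0321 with log2(FPKM + 1), 0.0357 with log2(FPKM + 0.1), 0.06 with the GC trend removed). With upper quartile scaling, 39.95% of passing genes were higher, beside 50.5% with TMM; 6 members then rose and 9 fell. Whether replicate numbers pair the libraries is not settled by these data. Correlations of the libraries' deviations from their group means were 0.026 to 0.13 for same numbers and -0.116 to 0.084 for different numbers. With a replicate block, 17 members and 5714 genes passed, beside 17 and 5026 without it. Depth limits BMF and BIK, at or near the floor.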
